A study of Mus musculus with 40 samples.

Results

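The 10 genes described here respond to glucocorticoid hormones or to cyclic AMP, or take part in that response: Fkbp5, Tsc22d3, Per1, Zbtb16, Sgk1, Klf9, Nr4a1, Crem, Dusp1 and Nr3c1. They were chosen by symbol from the 55260 gene symbols shared by all 5 deposited expression tables, and every one of them was found in each table. Expression is given as TPM, the authors' relative abundance scaled for transcript length, from RNA sequencing of mouse lung organoids, which are epithelial cultures grown in gel that form branches, and of embryonic lung epithelial tips, the cells at the ends of the growing airways.

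The 40 libraries form 5 sets. In the first, LO organoids were given as LO_day11_DCI and as LO_day8, LO_day11 and LO_day18, with 1 library each. In the second, 8 pieces of organoids (numbers 1 to 8) were set against an intact organoid (number 0), with 1 library each. The third holds the culture groups ALL-FGF10, ALL-MTG and ALL-VC against ALL, in which the label of each of the first 3 names what was taken away from the full set of factors, with 2 numbered libraries per group. The fourth holds 2C+F10, 2C+MTG, 2C+VC and an ALL library without a replicate number against 2C, with 1 library each. The last holds 10 organoid libraries started from E9.5 to E14 embryos and kept for 11 to 32 days, and 4 tip libraries, 1 for each embryonic day between E10.5 and E13.5. The labels give no strain, sex or genotype and no dose of any factor. LO, DCI, MTG, VC, 2C, F10 and ALL are not spelled out and are used as names. In lung culture the letters DCI are commonly used for dexamethasone, a cyclic AMP analogue and IBMX, but the labels do not say that they stand for these here. Whether libraries came from separate cultures, animals or pools is not stated, so each p-value measures only the spread between these libraries.

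Glucocorticoids enter the cell and bind the glucocorticoid receptor, encoded by Nr3c1, which HSP90 and its co-chaperones hold ready in the cytoplasm. The bound receptor moves to the nucleus and switches on genes near its binding sites, and in the fetal lung this hormone signal is known for hastening the maturation of alveolar cells and of surfactant. Cyclic AMP, made when certain receptors at the cell surface are stimulated, activates protein kinase A, which phosphorylates the factor CREB at genes that carry cyclic AMP response elements. Both signals are used in culture to mature alveolar type 2 (AT2) cells, the surfactant-secreting cells of the alveolus. Alveolar type 1 (AT1) cells are the thin cells across which gas is exchanged.

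Among the 10, Fkbp5 encodes an HSP90 co-chaperone that lowers the receptor's affinity for hormone, Tsc22d3 the leucine zipper protein GILZ, Zbtb16 the zinc finger repressor PLZF and Klf9 a Krüppel-like factor. Sgk1 encodes a kinase that raises the activity of the epithelial sodium channel, and Dusp1 a phosphatase that switches off MAP kinases. Per1 is a repressor of the circadian clock that both signals are known to induce. Nr4a1 encodes an orphan nuclear receptor and Crem a family of cyclic AMP response factors, which includes the repressor ICER.

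RefSeq promoter windows (GRCm38.p6, 250 bases before to 50 bases after a transcript start) were at hand for 7 of the 10 genes, in 15 windows, and were searched on both strands for sequences that these pathways are known to use. The glucocorticoid receptor core was searched as ACANNNTGT and its single arm as AGAACA. The cyclic AMP response element was searched as TGACGTCA and its shorter form as TGACG. The windows below are shown because they hold the most of each kind of match among these genes, with the matched letters in capitals. For Sgk1, 1 of its 6 windows is printed, chr10:21993640-21993939 on the plus strand. It is followed by Nr4a1, chr15:101266596-101266895 on the plus strand, and Dusp1, chr17:26508423-26508722 on the minus strand, each written 5′ to 3′.
Sgk1: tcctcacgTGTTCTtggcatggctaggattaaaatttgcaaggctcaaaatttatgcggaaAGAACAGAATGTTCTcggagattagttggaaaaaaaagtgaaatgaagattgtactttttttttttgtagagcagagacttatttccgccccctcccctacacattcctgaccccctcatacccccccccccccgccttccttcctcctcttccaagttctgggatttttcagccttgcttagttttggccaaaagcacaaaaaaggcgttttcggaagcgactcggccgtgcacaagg
Nr4a1: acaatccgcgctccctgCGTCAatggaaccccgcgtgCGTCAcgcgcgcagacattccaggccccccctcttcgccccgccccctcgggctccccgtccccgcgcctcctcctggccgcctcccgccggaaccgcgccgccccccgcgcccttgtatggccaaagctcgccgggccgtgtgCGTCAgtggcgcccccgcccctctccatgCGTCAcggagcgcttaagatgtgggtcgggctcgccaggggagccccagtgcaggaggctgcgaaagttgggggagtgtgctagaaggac
Dusp1: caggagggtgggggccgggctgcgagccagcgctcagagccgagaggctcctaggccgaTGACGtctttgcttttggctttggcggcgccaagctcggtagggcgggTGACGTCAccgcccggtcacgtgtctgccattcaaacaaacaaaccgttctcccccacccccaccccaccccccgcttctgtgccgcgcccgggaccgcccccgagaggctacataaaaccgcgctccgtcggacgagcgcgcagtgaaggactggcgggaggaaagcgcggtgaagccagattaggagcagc

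In the Sgk1 window the core began at position -186 from the start and overlapped AGAACA arms at -189 and -180, and a further arm lay at -242. The Nr4a1 window held TGACG at -233, -213, -69 and -40, and none of the other 3 motifs. The Dusp1 window held the full TGACGTCA at -143, which contains TGACG on either strand at -143 and -140, and a further TGACG at -191. Of all 32851 windows in the RefSeq table, 6.85% held ACANNNTGT, 19.0% held AGAACA, 1.79% held TGACGTCA and 20.8% held TGACG, so the shorter forms are common. Of the other Sgk1 windows, 1 held the core at -127 and TGACG at -236, 1 held AGAACA at -195, 1 held AGAACA at -13 and 2 held none of the 4 motifs. Of the 3 Tsc22d3 windows, 1 held AGAACA at -185, 1 held TGACG at -224 and 1 held none. The Klf9 window held TGACG at -46, and the Per1 windows held it at -246 and -132. The Fkbp5 window held none of the 4 motifs, which says only that these letters are not in that window.

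All 10 are protein-coding genes of the GRCm38 assembly in the GENCODE M21 annotation. Fkbp5 (ENSMUSG00000024222.17) lies on chromosome 17 from 28399094 to 28517527 on the minus strand, and Dusp1 (ENSMUSG00000024190.7) on the same chromosome from 26505590 to 26562128, also on the minus strand. Tsc22d3 (ENSMUSG00000031431.13) lies on chromosome X from 140539528 to 140600659 on the minus strand, and Zbtb16 (ENSMUSG00000066687.5) on chromosome 9 from 48654297 to 48836222 on the minus strand. On the plus strand are Per1 (ENSMUSG00000020893.17) on chromosome 11 from 69095217 to 69109960, Sgk1 (ENSMUSG00000019970.15) on chromosome 10 from 21882184 to 21999903, Klf9 (ENSMUSG00000033863.2) on chromosome 19 from 23141226 to 23168134 and Nr4a1 (ENSMUSG00000023034.7) on chromosome 15 from 101254269 to 101274795. Crem (ENSMUSG00000063889.16, from 3266048 to 3337748) and Nr3c1 (ENSMUSG00000024431.15, from 39410545 to 39519421) are both on the minus strand of chromosome 18. Exons of Dusp1 overlap those of Ergic1 on the opposite strand, and the sources used here do not say whether counting used strand, so reads in the overlap may be shared. Ergic1 had 49.69 TPM in the LO_day11_DCI library and 71.45 TPM in the LO_day11 library.

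With DCI at day 11, most of these genes were higher and none was lower by the size rule used here. Of the 10, 7 passed the size rule used where each group has 1 library, a difference of at least 1 in log2(TPM + 1) with at least 5 TPM in the higher library, and all 7 were higher in LO_day11_DCI. Zbtb16, 1 of the 7, reached 5 TPM only in LO_day11_DCI, so it could pass only as higher and is a description. Any gene that reached 5 TPM in only 1 of the 2 libraries could pass only toward that library, also in the list counts below. Of the 11369 genes that reached 5 TPM, 11.2% passed the rule in that direction and 13% were lower by it. Of all genes that passed, 46.2% were higher, and 55.4% or 51.1% after median-ratio or quantile rescaling. There is no replicate of either library, so these differences carry no test, and TPM keeps no read depth from which counting error could be had. The other LO days are given beside each gene as the one view of how far it varied without DCI. In bulk RNA, a shift in the share of cells of a type and a shift in RNA per cell cannot be told apart.

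The receptor gene Nr3c1 was among those that did not pass. It had 31.18 TPM in LO_day11_DCI, against 38.87, 39.74 and 28.01 TPM at LO_day8, LO_day11 and LO_day18. The DCI library lay within the range of the other days. Fkbp5 had 92.79 TPM in LO_day11_DCI, against 11.02, 6.69 and 2.61 TPM at days 8, 11 and 18, which is 13.9 times the day 11 level. On the log2(TPM + 1) scale it stood 3.61 above day 11 and 2.96 above the highest of the 3 days.

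The transcription regulators split into genes that were nearly silent and genes that already had a steady level. Zbtb16 had 20.88 TPM in LO_day11_DCI, against 0.25, 0.04 and 0 TPM at days 8, 11 and 18. Its difference of 4.39 in log2(TPM + 1) was the largest of the 10, and it reached 5 TPM only in the DCI library. Tsc22d3 had 114.38 TPM with DCI, against 25.87, 26.77 and 33.25 TPM at the 3 days, or 4.27 times the day 11 level. Klf9 had 42.02 TPM with DCI, against 11.71, 12.88 and 12.24 TPM, or 3.26 times day 11. For both genes the days without DCI lay close together, with a range of 0.35 for Tsc22d3 and 0.13 for Klf9 in log2(TPM + 1).

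The signalling enzymes were higher by a similar factor. Sgk1 had 101.15 TPM in LO_day11_DCI, against 11.84, 26.76 and 13.62 TPM at days 8, 11 and 18, or 3.78 times day 11. Dusp1 had 132.55 TPM with DCI, against 23.79, 29.19 and 44.21 TPM, or 4.54 times day 11. The clock gene Per1 had 59.22 TPM with DCI, against 10.47, 17.07 and 11.57 TPM, or 3.47 times day 11. In all 3 genes the DCI library was above every other LO day.

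The cyclic AMP targets Nr4a1 and Crem did not pass the rule. Nr4a1 had 9.64 TPM in LO_day11_DCI, against 6.24, 4.49 and 6.32 TPM at days 8, 11 and 18, a difference of 0.95 in log2(TPM + 1) from day 11 that fell just short of the rule. It passed when the pseudocount was 0.1 (1.09) and when libraries were rescaled by median ratio (1.07) or by quantiles (1.13). Crem had 25.14 TPM with DCI, against 18.46, 15.96 and 14.17 TPM, a difference of 0.62 from day 11. The next gene inside the rule was Klf9, with a difference of 1.63.

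**Figure D1:**
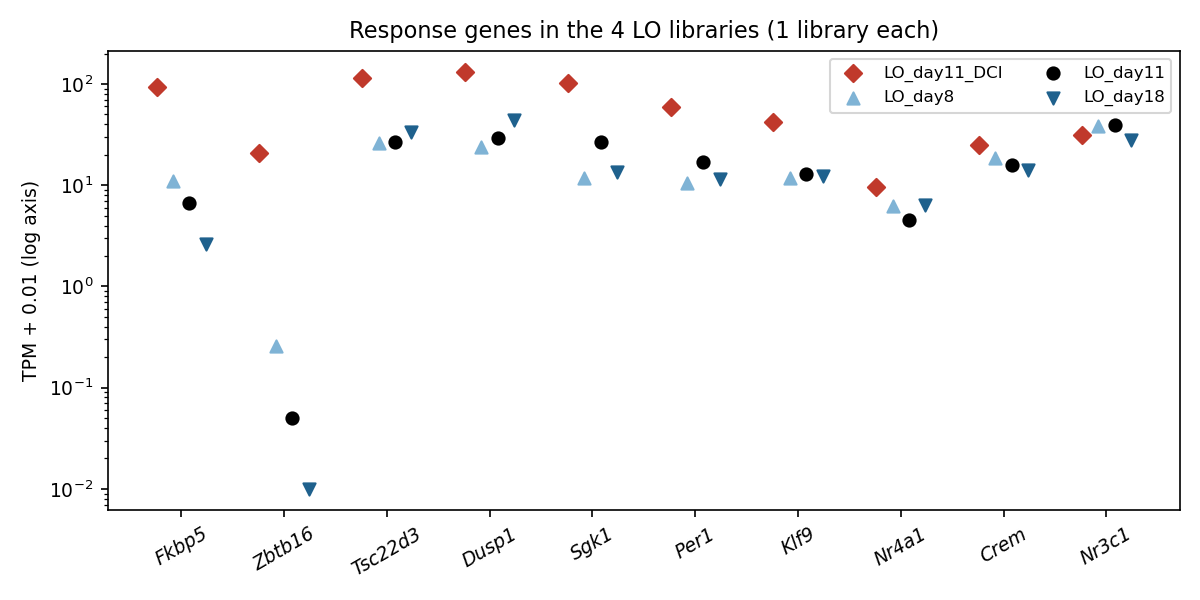
TPM plus 0.01 on a log axis for each of the 10 genes in LO_day11_DCI (red) and in LO_day8, LO_day11 and LO_day18 (blue and black), 1 library each. The DCI point lies above the other days for every gene but Nr3c1, and the gap is widest for Zbtb16 and Fkbp5.

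Set against all 40 libraries, the DCI library had the highest TPM of all for Fkbp5, Tsc22d3, Zbtb16, Sgk1 and Klf9. It ranked 3 for Per1 and for Dusp1, 10 for Crem, 22 for Nr3c1 and 29 for Nr4a1. Across the 35 organoid and piece libraries without DCI, Tsc22d3 ran from 14.38 to 39.26 TPM and Sgk1 from 3.99 to 50.47 TPM, both below their DCI levels. Tables were processed separately, so an order across them is a description.

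Most other known glucocorticoid targets were higher as well. Of 20 listed targets that reached 5 TPM, 16 were higher in LO_day11_DCI and 1 was lower, with a median difference of 2.12 in log2(TPM + 1), beside -0.08 over all genes. Over all genes, 11.2% were higher by the rule. The 16 include genes, Lcn2 and Hif3a among them, that were under 5 TPM at LO_day11 and so could pass only as higher. The count and the median are thus descriptions. Scnn1a and Scnn1b, subunits of the epithelial sodium channel that Sgk1 acts on, had 482.79 and 119.98 TPM with DCI, against 30.18 and 6.48 TPM at LO_day11. Hif3a, a hypoxia-inducible factor subunit, had 80.07 TPM with DCI and 3.92 TPM at day 11. Lcn2, an iron-binding defence protein, had 66.58 TPM with DCI and 0.77 TPM at day 11, but 1271.22 TPM at LO_day18 without DCI. Cdkn1c, a cell cycle inhibitor, was the target that was lower, with 187.33 TPM in the DCI library and 479.09 TPM at day 11.

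Of the listed cyclic AMP targets only 5 reached 5 TPM, and 3 of these were higher with DCI, with a median difference of 1.05. After median-ratio rescaling 4 of the 5 were higher. Areg, the growth factor amphiregulin, had 125.18 TPM in LO_day11_DCI and 9.82 TPM at LO_day11. Sik1, a kinase that damps CREB signalling, had 104.08 TPM with DCI and 14.66 TPM at day 11. Ppargc1a, a coactivator of mitochondrial genes, had 14.2 TPM with DCI and 6.32 TPM at day 11. Of 10 genes of the cyclic AMP machinery described here, 1 was lower. Prkar2b, a regulatory subunit of protein kinase A, had 1.62 TPM with DCI and 11.77 TPM at day 11.

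The chaperone set that holds the receptor did not rise with Fkbp5. Of 7 genes of the receptor machinery that reached 5 TPM, none was higher with DCI and Hsp90ab1 was lower, with 763.51 TPM in LO_day11_DCI and 1552.74 TPM at LO_day11. It did not pass after median-ratio rescaling. Of 9 clock genes other than Per1, 2 were higher and 1 lower, and after median-ratio or quantile rescaling 4 or 3 were higher. Tef and Per2 had 122.87 and 28.22 TPM with DCI, against 29.5 and 11.2 TPM at day 11, while Dbp had 1.69 TPM with DCI and 5.75 TPM at day 11. Of 10 immediate early genes, the fast transcription factors that stress and growth signals switch on, 6 were higher and 1 lower. Jund had 315.93 TPM and Fos 36.93 TPM with DCI, against 80.88 and 9.05 TPM at day 11, while Egr1 had 16.13 TPM with DCI and 131.32 TPM at day 11.

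**Figure D2:**
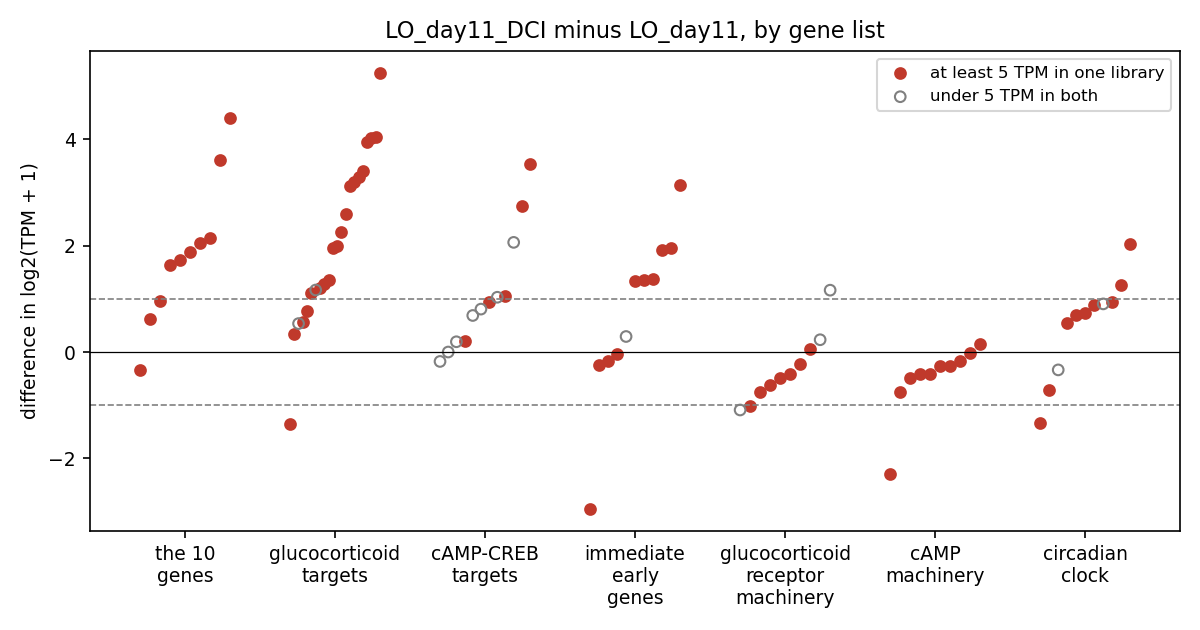
Differences in log2(TPM + 1), LO_day11_DCI minus LO_day11, for the 10 genes and for 6 lists of related genes, with dashed lines at the size rule of 1. Filled points reached 5 TPM in the higher library, and most filled points of the glucocorticoid target list lie above the upper line.

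Markers of cell identity moved in the same comparison, and their part in it was not tested. All 8 AT1 markers and 8 of 10 AT2 markers were higher with DCI, and 1 AT2 marker was lower. Summed AT1 markers came to 5557.08 TPM in LO_day11_DCI and 687.44 TPM at LO_day11, and summed AT2 markers to 85353.76 TPM with DCI and 38584.89 TPM at day 11. The 10 response genes together summed to 628.95 TPM in LO_day11_DCI and 166.0 TPM at LO_day18. At LO_day18, without DCI, AT2 markers summed to 121849.89 TPM, above the DCI library, and AT1 markers to 1425.11 TPM, below it. Most of the AT2 sums was Sftpc, with 109317.96 TPM at LO_day18 and 70631.62 TPM with DCI. Sftpa1, Sftpd, Lamp3 and Etv5 were also higher at LO_day18. In contrast, Sftpb, Napsa, Slc34a2, Lpcat1 and Abca3 were higher with DCI. Of the mesenchymal markers Pdgfra was higher (14.66 TPM with DCI, 0.03 TPM at day 11) and Dcn lower (0.66 TPM with DCI, 34.43 TPM at day 11). No endothelial or blood marker reached 5 TPM in either library.

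Between LO_day18 and LO_day8, without DCI, Fkbp5 was the 1 gene of the 10 that passed the rule, with 2.61 TPM at day 18 and 11.02 TPM at day 8, a difference of -1.74. Of 11514 genes, 19.9% passed in either direction. Of those, 37.4% were higher at day 18, and 57.7% or 53.7% after median-ratio or quantile rescaling, which moved the median difference of all genes to 0.01 or -0.07, against -0.26 without it. Dusp1 had a difference of 0.87, which became 1.13 and 1.06 under median-ratio and quantile rescaling and then passed. The remaining 8 genes differed by less than 0.5, or, for Zbtb16, stayed under 5 TPM.

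Cut pieces held more Sgk1, Per1 and Klf9 RNA than the intact organoid, but no gene was called in limma. The labels name pieces 1 to 4 up-half, down-half, left-half and right-half, and pieces 5 to 8 by a side within an upper or lower piece, such as up-half-left. They do not say whether pieces came from the same organoid or when after cutting they were taken. With limma on log2(TPM + 1), 0 of 15017 genes (0%) and 0 of the 9 genes tested differed between pieces and the intact organoid at an adjusted p under 0.05. At an unadjusted p under 0.05 there were 681 genes, 3 of them among these 9. Zbtb16 was listed at 0 in all 9 libraries. With 1 intact library, its spread was assumed to be that of the pieces, so each error and p below comes from the pieces alone. How many of all genes had every piece above that library was not counted, so such separations are given as a description.

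Sgk1 was the furthest apart. It ran from 25.17 to 50.47 TPM over the 8 pieces, with a median of 43.76 TPM, against 10.32 TPM in the intact organoid. Every piece was above the intact library, and the fitted difference was 1.86 ± 0.23 (SE, 95% interval 1.34 to 2.38, 8 pieces against 1), with an adjusted p of 0.33 in limma. Without the filter on low TPM, its adjusted p was 0.0067, in a fit that called 184 genes.

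Per1 and Klf9 were also above the intact level in every piece. Per1 ran from 19.38 to 78.92 TPM in pieces, with a median of 35.86 TPM, against 15.13 TPM in the intact organoid, a difference of 1.32 ± 0.42. The highest values, 77.54 and 78.92 TPM, were those of the up-half-left and down-half-left pieces. Klf9 ran from 16.3 to 29.82 TPM in pieces, with a median of 22.16 TPM, against 13.15 TPM in the intact organoid, a difference of 0.70 ± 0.25. The adjusted p was 1 in limma for both. Tsc22d3 was higher in all pieces too, at 25.75 to 38.22 TPM, against 22.97 TPM in the intact organoid.

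The other genes had pieces on either side of the intact value. Nr4a1 ran from 8.88 to 49.25 TPM in pieces, with 15.65 TPM in the intact organoid, and Dusp1 from 34.88 to 114.92 TPM, with 103.44 TPM in the intact organoid. Fkbp5 ran from 2.24 to 9.2 TPM in pieces and was 7.78 TPM in the intact organoid. Crem had 15.46 to 31.17 TPM in pieces and 21.24 TPM intact, and Nr3c1 17.68 to 41.24 TPM in pieces and 27.45 TPM intact. Immediate early genes summed to 847.05 TPM in the intact organoid. They summed to 720.68 TPM in the up-half-left piece and to 880.94 to 1567.47 TPM in every other piece.

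Piece size and position gave no called gene either. Nr4a1 had 25.7, 49.25, 45.55 and 30.65 TPM in pieces 5 to 8, against 8.88, 18.79, 13.0 and 27.15 TPM in pieces 1 to 4, so the groups overlapped by 1 library. The difference was 1.17 ± 0.32 with an adjusted p of 0.87 in limma, where 0 of 15017 genes (0%) were called and 799 passed unadjusted. Per1 was 1.10 ± 0.32 higher in left than in right pieces, with an adjusted p of 1 in limma, and Sgk1 was 0.59 ± 0.18 lower in up than in down pieces, also with an adjusted p of 1. Both contrasts called 0 of 15017 genes (0%), with 463 and 663 passing unadjusted.

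**Figure D3:**
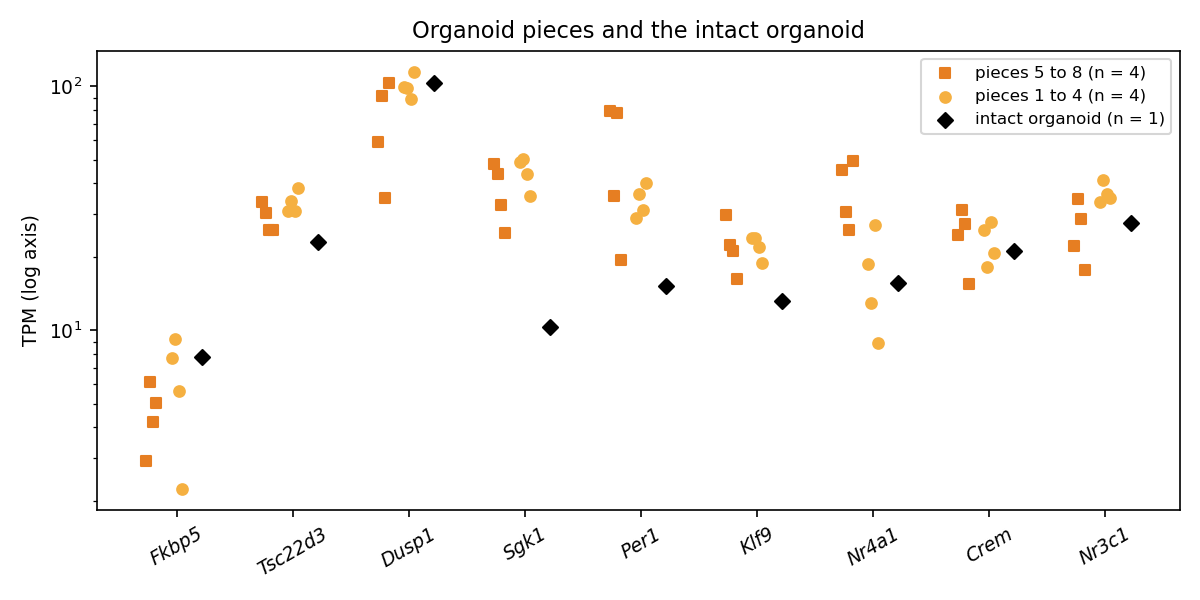
TPM on a log axis for 9 of the genes in pieces 5 to 8, pieces 1 to 4 and the intact organoid, 1 point per library. Every piece lies above the intact organoid for Sgk1, Per1, Klf9 and Tsc22d3.

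Sgk1 was the gene called when a culture factor was left out. It fell when FGF10, the growth factor that drives branching in the lung bud, was left out, and it was the only one of these genes called in any of the 6 contrasts between the numbered groups. Sgk1 had 3.99 and 5.37 TPM in ALL-FGF10, 22.77 and 36.61 TPM in ALL-MTG and 8.67 and 9.51 TPM in ALL-VC, against 20.03 and 28.67 TPM in ALL. The ALL-FGF10 libraries were the lowest of the 8, ALL-VC came next, and ALL-MTG overlapped ALL.

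In limma, Sgk1 differed by -2.15 ± 0.30 between ALL-FGF10 and ALL (adjusted p 0.019, 2 libraries each), where 0.953% of 14802 genes were called lower. Between ALL-FGF10 and ALL-MTG the difference was -2.41 ± 0.30 (adjusted p 0.0083), where 1.74% of genes were called lower. Both contrasts share the ALL-FGF10 libraries. The call against ALL was lost without either ALL-FGF10 library (adjusted p 0.24 and 0.19 in limma), without ALL replicate 2 (0.078), without either ALL-VC library (0.051) and with only ALL-FGF10 and ALL in the fit (0.052), with differences from -2.32 to -1.90. The call against ALL-MTG was lost without either ALL-FGF10 library (0.16 and 0.12).

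Leaving out VC gave an intermediate Sgk1 level and a higher Fkbp5 level, but neither was called. For Sgk1 the difference between ALL-VC and ALL was -1.31 ± 0.30 with an adjusted p of 0.11 in limma. Fkbp5 had 7.93 and 6.08 TPM in ALL-VC, against 2.01 and 2.84 TPM in ALL, with no overlap, and a difference of 1.23 ± 0.29 (adjusted p 0.12 in limma). It had 3.31 and 3.15 TPM in ALL-FGF10 and 2.4 and 2.16 TPM in ALL-MTG. Limma called 0 of the 9 genes in ALL-VC against ALL (4 unadjusted), where 0.804% of all genes were called. Of all 14802 genes, 2533 were at an unadjusted p under 0.05 there. Without ALL replicate 1, Sgk1 (-1.56) and Nr3c1 (0.82) were called, each at an adjusted p of 0.045.

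Dusp1 was lower in every library with a factor left out. It had 54.05 and 59.91 TPM in ALL-FGF10, 43.34 and 55.83 TPM in ALL-MTG and 50.22 and 61.44 TPM in ALL-VC, against 101.14 and 88.56 TPM in ALL. The differences were -0.72 ± 0.19, -0.93 ± 0.19 and -0.76 ± 0.19, with adjusted p-values of 0.11, 0.095 and 0.12 in limma, and all 3 share the ALL libraries. In ALL-MTG against ALL, 0 of the 9 genes were called (1 unadjusted) beside 0.513% of all genes, with 1924 of 14802 passing unadjusted.

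Nr4a1 and Per1 were far apart between the ALL-MTG libraries. Nr4a1 had 10.17 and 10.1 TPM in ALL-FGF10, 14.26 and 43.12 TPM in ALL-MTG and 12.88 and 12.3 TPM in ALL-VC, against 27.32 and 18.6 TPM in ALL. Per1 had 10.9 and 9.92 TPM in ALL-FGF10, 8.8 and 54.03 TPM in ALL-MTG and 12.25 and 14.33 TPM in ALL-VC, against 11.98 and 14.96 TPM in ALL. In both genes ALL-MTG replicate 2 stood far above replicate 1. Immediate early genes summed to 905.09 TPM in that library and 546.77 TPM in replicate 1, and the part of these genes in the difference was not tested. Without ALL-MTG replicate 1, Per1 (-2.27, adjusted p 0.016) and Nr4a1 (-1.99, adjusted p 0.033) were called in limma between ALL-FGF10 and ALL-MTG, and without replicate 2 the Per1 difference was 0.22.

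Tsc22d3, Klf9, Crem and Nr3c1 were not called in any contrast between the numbered groups. Over the 8 libraries, Tsc22d3 ran from 20.82 to 39.26 TPM and Klf9 from 7.07 to 15.76 TPM. The highest Tsc22d3 value and both ends of the Klf9 range were ALL libraries. Crem ran from 15.71 TPM in ALL to 27.98 TPM in ALL-VC, with a difference of 0.60 ± 0.20 between ALL-VC and ALL (adjusted p 0.21 in limma). Nr3c1 ran from 17.83 to 35.39 TPM, with 27.98 and 17.83 TPM in the 2 ALL libraries. Zbtb16 stayed at or under 0.16 TPM and was not tested.

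Between omissions, limma called 0 of the 9 genes in ALL-FGF10 against ALL-VC (2 unadjusted, beside 2960 of 14802 genes). There 3.82% of all genes were called, 50.8% of them higher, and 61.5% after median-ratio rescaling. In ALL-MTG against ALL-VC it called 0 of the 9 (2 unadjusted, beside 1930 of 14802 genes) and 0.547% of all genes. In the second, Sgk1 differed by 1.57 ± 0.30 (adjusted p 0.091 in limma) and Fkbp5 by -1.28 ± 0.29 (adjusted p 0.13).

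**Figure D4:**
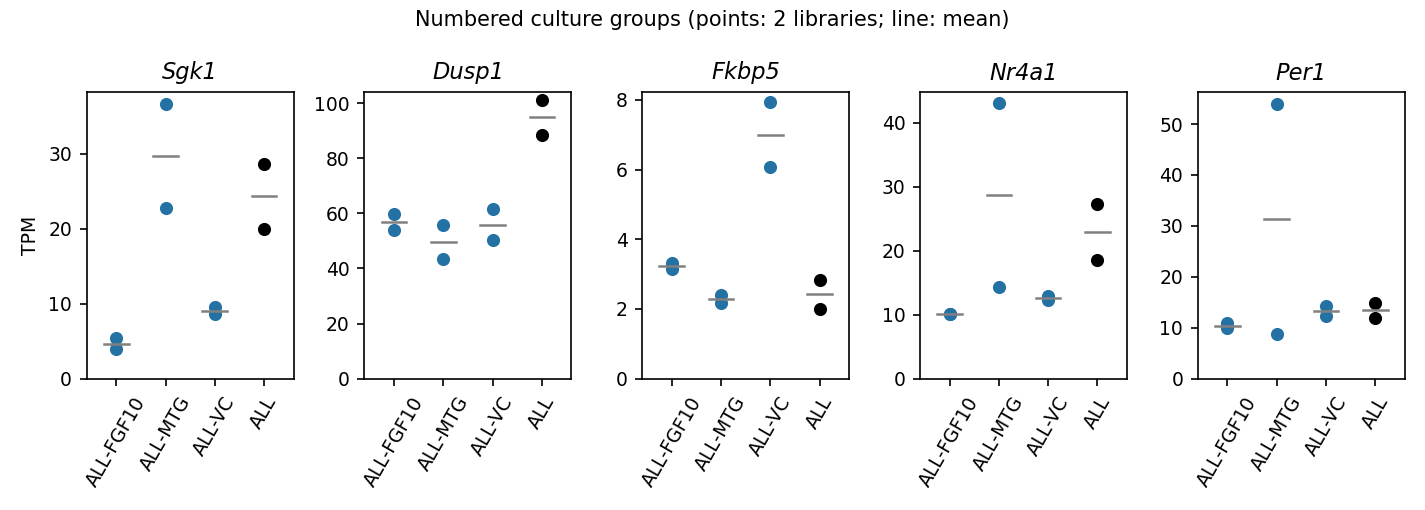
TPM of Sgk1, Dusp1, Fkbp5, Nr4a1 and Per1 in ALL-FGF10, ALL-MTG, ALL-VC and ALL, with a point for each of 2 libraries and a line at their mean. Sgk1 is lowest in ALL-FGF10, Dusp1 is highest in ALL, and the ALL-MTG libraries are far apart for Nr4a1 and Per1.

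Related genes were called in small numbers. Of 21 glucocorticoid targets tested, none was higher and 1 lower in ALL-FGF10 than in ALL, with a median difference of -0.31 beside 0.10 over all genes. The lower one was Lcn2 (-2.60 ± 0.43, adjusted p 0.034 in limma). Of 11 immediate early genes, all were at an unadjusted p under 0.05 in limma, beside 2705 of 14802 over all genes. Of the 11, 3 were called lower without FGF10, namely Fosb (-3.13), Junb (-1.80) and Jund (-1.26). Their adjusted p-values were 0.044, 0.049 and 0.027 in limma. After median-ratio or quantile rescaling 2 of the 11 were called lower, and 2 or 1 of the 21 targets. Between ALL-FGF10 and ALL-MTG, 1 target was higher, Angptl4 (2.27 ± 0.28, adjusted p 0.008 in limma), and 3 were lower, Anxa1 (-2.02), Rhob (-1.01) and Mt1 (-1.35), with adjusted p-values of 0.0052, 0.019 and 0.037 in limma. Of 11 immediate early genes, 1 was higher and 2 lower there, and of 8 cyclic AMP targets Areg was lower (-2.90 ± 0.28, adjusted p 0.0028 in limma).

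Between ALL-FGF10 and ALL-VC, 2 glucocorticoid targets were higher and 3 lower, among them Angptl4 (1.44, adjusted p 0.035 in limma) and Anxa1 (-1.94, 0.0056), and 4 immediate early genes were lower, with Fosb (-3.49, 0.019) the furthest apart. In ALL-VC against ALL, Scnn1a was lower (-2.41 ± 0.36, adjusted p 0.037 in limma). In ALL-MTG against ALL, the targets Lcn2 (-3.67, adjusted p 0.026 in limma) and Angptl4 (-1.87, 0.041) and the immediate early gene Zfp36 (-1.55, 0.025) were lower. In ALL-MTG against ALL-VC, 0 of 21 targets and 0 of 11 immediate early genes were called in limma (10 and 5 at an unadjusted p under 0.05). Of all 14802 genes, 1930 were at that unadjusted level there. After median-ratio or quantile rescaling 1 target was called higher there. None of the 9 tested genes of the receptor machinery, nor of the 10 of the cyclic AMP machinery, was called in any of the 6 contrasts in limma. Of these genes, 0 to 4 and 0 to 3 were at an unadjusted p under 0.05, beside 1924 to 2960 of all 14802 genes.

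Markers of cell type were called in some of these contrasts as well, and their part in the results was not tested. Between ALL-FGF10 and ALL-MTG, 4 of 10 AT2 markers were higher, Sftpa1 (2.41), Slc34a2 (2.20), Abca3 (0.93) and Lamp3 (0.80), and the epithelial markers Krt8 (-1.85), Krt18 (-1.85) and Epcam (-0.89) were lower. Between ALL-FGF10 and ALL, limma called 0 of 10 AT2, 0 of 8 AT1 and 0 of 6 epithelial markers (3, 2 and 5 unadjusted). Of all 14802 genes, 2705 passed unadjusted there. After either rescaling 1 AT1 marker was lower. Mesenchymal markers summed to 1.5 and 0.68 TPM in ALL-FGF10, 179.83 and 8.52 TPM in ALL-MTG and 0.93 and 1.71 TPM in ALL-VC, against 91.6 and 4.69 TPM in ALL. The sums were thus high in replicate 1 of ALL-MTG and of ALL, but through different genes. In ALL-MTG replicate 1, Dcn had 168.29 TPM and Col1a1 11.26 TPM. Col1a2, Col3a1, Pdgfra and Pdgfrb were at most 0.2 TPM there. In ALL replicate 1, Col3a1 had 45.16 TPM, Col1a2 15.7 TPM, Col1a1 13.73 TPM, Pdgfra 7.27 TPM, Dcn 7.24 TPM and Pdgfrb 2.5 TPM. Without ALL replicate 1, Sgk1 differed by -2.40 between ALL-FGF10 and ALL (adjusted p 0.026 in limma), and without ALL-MTG replicate 1 by -2.74 between ALL-FGF10 and ALL-MTG (0.018).

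When factors were added to 2C, few of the genes passed the size rule, and with 1 library each no test was possible. All 4 comparisons share the 2C library. In 2C+F10 none of the 10 passed, while 5.9% of 10896 genes did. The nearest were Per1, with 36.99 TPM in 2C+F10 and 18.92 TPM in 2C (0.93), and Sgk1, with 17.32 TPM in 2C+F10 and 9.01 TPM in 2C (0.87). The 2C+F10 library also held mesenchymal markers, which summed to 97.26 TPM in 2C+F10 and 3.57 TPM in 2C, and all 3 that reached 5 TPM passed as higher, with a median difference of 3.87. Their part in these values was not tested.

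In 2C+MTG, Crem was lower, with 12.91 TPM against 26.96 TPM in 2C, a difference of -1.01 where 4.93% of 10791 genes were lower. It no longer passed under median-ratio or quantile rescaling (-0.87 in both) or without mitochondrial genes (-0.99). Nr4a1 (9.96 TPM in 2C+MTG, 18.78 TPM in 2C), Tsc22d3 (14.38 and 24.98 TPM) and Per1 (11.82 and 18.92 TPM) were lower without passing.

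In 2C+VC, Dusp1 was higher, with 133.68 TPM against 65.97 TPM in 2C, a difference of 1.01 where 5.81% of 11047 genes were higher. It stood at the edge of the rule and did not pass when mitochondrial genes were left out. Sgk1 had 17.15 TPM in 2C+VC and 9.01 TPM in 2C (0.86), and Tsc22d3 had 39.03 TPM in 2C+VC and 24.98 TPM in 2C (0.62).

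The ALL library without a number was higher than 2C for 2 genes, where 4.89% of 10916 genes were higher. Of all genes that passed in this comparison, 39.7% were higher, and 61.6% or 56.9% after median-ratio or quantile rescaling, with the median of all genes at 0.04 or -0.05, against -0.24 without rescaling. Sgk1 had 34.72 TPM in that ALL library and 9.01 TPM in 2C (1.83), and Dusp1 had 200.05 TPM in ALL and 65.97 TPM in 2C (1.59). Crem was at -0.99, with 13.12 TPM in ALL and 26.96 TPM in 2C, and passed with a pseudocount of 0.1 (-1.03) or without mitochondrial genes (-1.04). Dusp1 at 200.05 TPM was its highest value in all 40 libraries. In the numbered ALL libraries of the other set, Dusp1 had 101.14 and 88.56 TPM and Sgk1 20.03 and 28.67 TPM.

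Fkbp5 and Zbtb16 stayed close to 2C in each mixture. Fkbp5 had 6.86 TPM in 2C+F10, 6.27 TPM in 2C+MTG, 5.85 TPM in 2C+VC and 4.82 TPM in ALL, against 5.06 TPM in 2C. Zbtb16 was at most 0.42 TPM. Among related genes, Scnn1a varied widely, with 96.38 TPM in 2C+F10, 8.28 TPM in 2C+MTG, 166.56 TPM in 2C+VC and 104.15 TPM in ALL, against 34.5 TPM in 2C. AT2 markers summed to 77014.04 TPM in 2C+VC and 112699.04 TPM in that ALL library, against 27587.97 TPM in 2C, and their part in these values was not tested.

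Fkbp5 was lower in organoids than in embryonic tips, and the receptor gene Nr3c1 was higher. In limma, 6 genes were called higher in organoids and Fkbp5 was called lower, against a background in which 21.7% of 16779 genes were called higher and 40.2% lower. The share of calls that were higher was 35.0%, and 48.7% or 45.9% after median-ratio or quantile rescaling. Zbtb16 passed the filter on low TPM through the tips alone, so its values are given as a description with no test. The median gene differed by -0.20 in log2(TPM + 1), and by 0.04 or -0.01 after median-ratio or quantile rescaling, which kept these 7 calls and added Tsc22d3 as higher (0.41 and 0.38, adjusted p 0.012 and 0.025).

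Fkbp5 ran from 1.75 to 7.02 TPM in the 10 organoid libraries, with a median of 3.6 TPM, against 46.76, 39.33, 41.54 and 40.38 TPM in tips from E10.5 to E13.5. The groups did not overlap, and the difference was -3.20 ± 0.22 (adjusted p 9.3e-09 in limma, 10 against 4 libraries). Zbtb16 ran from 0 to 0.46 TPM in organoids, with a median of 0.08 TPM, against 5.44, 5.19, 5.56 and 2.07 TPM in tips, again without overlap. In LO_day11_DCI, which is a separate table, Fkbp5 was at 92.79 TPM and Zbtb16 at 20.88 TPM, above the tips in both.

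Nr3c1 ran from 27.1 to 41.7 TPM in organoids, with a median of 35.42 TPM, against 8.04, 8.69, 11.78 and 13.62 TPM in tips. Each organoid library was above each tip library, by 1.65 ± 0.15 (adjusted p 1.4e-07 in limma). Klf9 ran from 10.15 to 19.86 TPM in organoids, with a median of 13.16 TPM, against 5.84, 4.52, 4.7 and 4.97 TPM in tips, also without overlap (1.26 ± 0.16, adjusted p 4.9e-06 in limma). Dusp1 ran from 10.7 to 69.07 TPM in organoids, with a median of 30.82 TPM, against 6.37, 9.38, 6.37 and 4.23 TPM in tips. Its groups did not overlap either (2.07 ± 0.45, adjusted p 0.00081 in limma).

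Sgk1 ran from 5.03 to 32.35 TPM in organoids, with a median of 12.05 TPM, against 5.76, 3.93, 1.44 and 1.3 TPM in tips, and the lowest organoid lay below the highest tip (1.83 ± 0.40, adjusted p 0.00091 in limma). Crem ran from 11.54 to 28.33 TPM in organoids, with a median of 16.98 TPM, against 6.75, 12.67, 10.46 and 11.91 TPM in tips (0.72 ± 0.20, adjusted p 0.0055 in limma). Per1 ran from 8.17 to 24.65 TPM in organoids, with a median of 16.62 TPM, against 8.14, 12.16, 6.43 and 10.52 TPM in tips (0.73 ± 0.24, adjusted p 0.017 in limma). Crem and Per1 both overlapped between groups, and the Per1 call was lost without the E10.5 tip (adjusted p 0.050) or the E12.5 tip (0.078).

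Tsc22d3 and Nr4a1 were not called. Tsc22d3 had 18.79 to 37.52 TPM in organoids and 22.31 to 25.01 TPM in tips, a difference of 0.11 with a 95% interval from -0.19 to 0.41. Nr4a1 had 3.58 to 81.06 TPM in organoids and 8.04 to 9.86 TPM in tips, and its interval, from -0.71 to 1.85, was wide.

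The chaperones of the receptor were lower in organoids, where the receptor RNA was higher. Of 9 tested genes of the receptor machinery, 7 fell and 2 rose, with a median difference of -1.48 beside -0.20 over all genes. Hsp90aa1, Fkbp4 and Stip1, which encode HSP90 and its co-chaperones, fell by 1.89 ± 0.11, 1.55 ± 0.12 and 1.60 ± 0.12, with adjusted p-values of 2e-09, 3.1e-08 and 1.8e-08 in limma. Hsd11b2, which encodes the enzyme that inactivates glucocorticoids, ran from 0.14 to 4.86 TPM in organoids and from 15.47 to 48.17 TPM in tips (-3.66 ± 0.39, adjusted p 8.3e-07 in limma). The 2 that rose were Ncoa1, a receptor coactivator (1.54 ± 0.12), and Nr3c2, the mineralocorticoid receptor. Both were chosen for naming after their values were seen. Nr3c2 had 1.0 to 2.15 TPM in organoids and 0.12 to 0.59 TPM in tips. It was low in both and passed the filter on low TPM through the organoids alone, so its values are a description with no test.

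Most listed glucocorticoid targets went the other way from Fkbp5. Of 21 tested, 15 rose and 2 fell in organoids, with a median of 1.84. The 15 include genes, Lcn2 and Scnn1b among them, that passed the filter on low TPM through the organoids alone. These 2 are given as a description with no test, and the count and median of the list are descriptions too. Lcn2 had 4.37 to 1362.05 TPM in organoids and was listed at 0 in all 4 tips. Scnn1b had 16.12 to 51.19 TPM in organoids and 0 to 0.42 TPM in tips. Anxa1, an annexin, rose by 5.49 and Cdkn1c fell by 4.63, with adjusted p-values of 1.7e-08 and 0.0003 in limma. Of 10 cyclic AMP targets 3 rose and 2 fell, with a median of -0.03. Areg, 1 of the 3, had 7.46 to 60.21 TPM in organoids and was listed at 0 in all 4 tips. It thus passed the filter through the organoids alone, and its values are a description. Pde10a, 1 of the 2 that fell, had 0.53 to 2.01 TPM in tips and at most 0.16 TPM in organoids. It passed the filter through the tips alone, so its values are a description too. Of 10 genes of the cyclic AMP machinery 7 fell, with Prkar2b falling the most (-1.91 ± 0.22, adjusted p 1.7e-06 in limma). Of 11 clock genes 6 rose and 1 fell, and of 11 immediate early genes 7 rose and 1 fell. After median-ratio or quantile rescaling, 2 or 1 of the 10 genes of the cyclic AMP machinery rose and 4 fell, 4 cyclic AMP targets rose, and no immediate early gene fell.

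Markers of other cell types and the mitochondrial share were also unequal between organoids and tips, and their part in these differences was not tested. Epithelial markers summed to 1369.22 to 1709.58 TPM in organoids and 1367.52 to 1660.52 TPM in tips, but 3 of 6 were called higher and 2 lower. Cdh1 (0.88 ± 0.12, adjusted p 9.2e-06 in limma) and Krt18 (0.55 ± 0.19, 0.019) rose, while Sox9 (-1.31 ± 0.24, 0.0002) and Epcam (-0.62 ± 0.14, 0.0015) fell. Mitochondrial genes took 11.3% to 15.2% of TPM in organoids and 6.54% to 8.29% in tips. Blood markers summed to 0 to 0.25 TPM in organoids and 732.87 to 2794.49 TPM in tips. Endothelial markers summed to 0.17 to 0.69 TPM in organoids and 4.23 to 22.6 TPM in tips. Mesenchymal markers summed to 2.87 to 317.55 TPM in organoids and 90.9 to 188.68 TPM in tips. AT2 markers summed to 55221.05 to 137046.62 TPM in organoids and 792.33 to 1146.28 TPM in tips.

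Within organoids, Fkbp5 declined with days in culture. It had 5.2, 3.59, 3.94 and 4.69 TPM at 11 days, 7.02 TPM at 13 days, 3.42 and 3.6 TPM at 18 and 19 days, 3.05 TPM at 24 days, and 1.75 and 2.5 TPM at 30 and 32 days. The 13-day library was the highest and the 30-day and 32-day libraries were the lowest. Over the range of 21 days the fitted slope, adjusted for start stage, came to -0.86 ± 0.21 in log2(TPM + 1) (adjusted p 0.026 in limma), where 6.67% of 16779 genes were called lower and 2.97% higher. Of all calls on culture day 30.8% were higher, and 59.9% or 46.8% after median-ratio or quantile rescaling. The Fkbp5 call was lost after median-ratio (-0.70, adjusted p 0.072) or quantile rescaling (-0.76, 0.069), with culture day alone in the organoids (-0.89, 0.058), and without the E10.5 32-day (0.15), E13.5 30-day (0.088) or E14 11-day (0.066) library.

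Nr4a1 had the largest slope of the 10 and was not called. It had 3.58, 28.76, 10.06 and 7.15 TPM in the 11-day organoids from E10.5, E11.5, E13.5 and E14, 12.94 TPM at 13 days, 6.68 and 14.01 TPM at 18 and 19 days, 5.2 TPM at 24 days, and 39.34 and 81.06 TPM at 30 and 32 days. The oldest cultures stood above all others, and the E11.5 11-day library above the rest of the young ones. The slope was 2.12 ± 0.75 (adjusted p 0.098 in limma), and it was called without the E11.5 11-day library (2.61, 0.040) or the E14 24-day library (2.51, 0.035).

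The same libraries were high in other immediate early genes. These summed to 1151.64 TPM in the E13.5 30-day, 944.2 TPM in the E10.5 32-day, 972.05 TPM in the E11.5 11-day and 841.87 TPM in the E9.5 13-day organoids, and to between 397.86 and 644.19 TPM in the other 6. Dusp1 was highest in those 4 libraries as well, at 69.07, 54.86, 62.91 and 50.61 TPM, and between 10.7 and 39.88 TPM in the others. Its slope on culture day was 1.12 ± 0.59 (adjusted p 0.26 in limma).

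The slopes of the other genes were not called either. Sgk1 had 1.06 ± 0.43 (adjusted p 0.14 in limma), Crem -0.66 ± 0.23 (0.089) and Tsc22d3 -0.46 ± 0.17 (0.11), and Tsc22d3 was called without the E9.5 13-day library (-0.53, 0.041). Per1, Klf9 and Nr3c1 had slopes between -0.21 and 0.42. Zbtb16 was at most 0.46 TPM in the organoids and was in the fit through the tips alone, so its slope is not read. Of 21 glucocorticoid targets, 5 rose and 1 fell with culture day, with a median of 0.00 beside -0.17 over all genes. Lcn2 (5.87), Cebpd (1.65) and Nfkbia (1.23) rose and Cdkn1c fell by 4.04, with adjusted p-values of 0.019, 0.034, 0.049 and 0.0037 in limma. The clock repressor genes Nr1d1 (3.54, adjusted p 0.0017) and Nr1d2 (1.72, 0.0044) rose in limma, and Cry1, also a clock repressor, fell by 0.71 (0.010).

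None of the 10 genes was called for the stage of the embryo. For the start stage of organoids, over 4.5 days, limma called 0 of the 10 genes (0 unadjusted) and 0.0536% of all genes, with 1250 passing unadjusted. The 10 include Zbtb16, which was at most 0.46 TPM in organoids and was in that fit through the tips alone. For the age of the tips, over 3 days, it called 0 of 10 (3 unadjusted) and 0.733% of all genes, with 1664 of 16779 passing unadjusted. The 3 were Sgk1 (-1.70 ± 0.67, adjusted p 0.40 in limma), Nr3c1 (0.74 ± 0.28, 0.34) and Zbtb16. The Zbtb16 slope of -0.94 rested on the E13.5 tip, was 0.04 without it, and is given as a description. Over the 4 tips Sgk1 descended and Nr3c1 ascended in stage order, but with 1 library per stage the spread comes from the fitted lines.

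**Figure D5:**
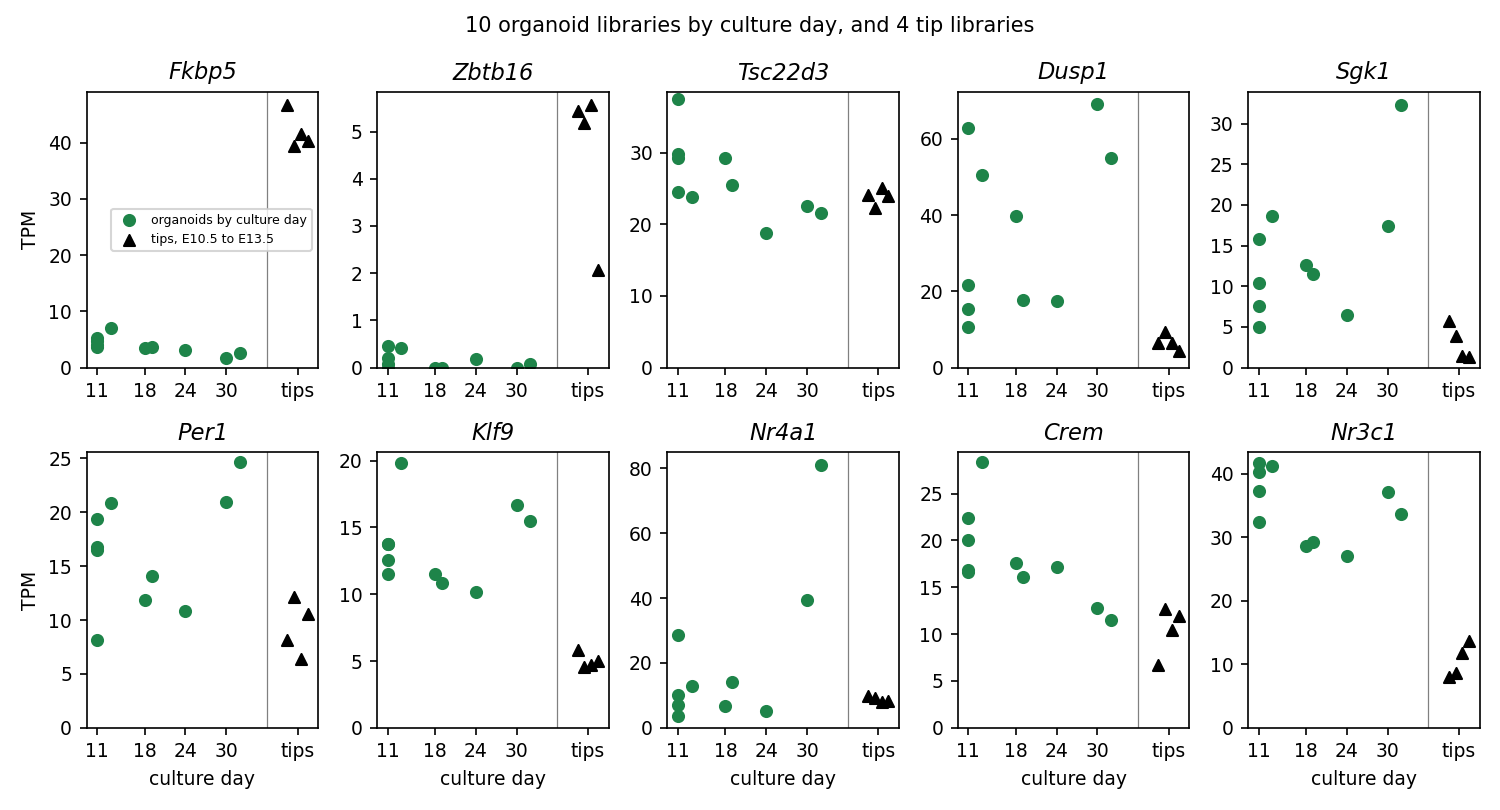
TPM of each gene in 10 organoid libraries by culture day (circles) and in 4 tip libraries, ordered by stage (triangles). Fkbp5 and Zbtb16 are lower in the organoids than in the tips, Nr3c1 and Klf9 are higher, and Nr4a1 is highest in the 30-day and 32-day organoids.

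Over all 40 libraries, centred within each table, the genes whose log2(TPM + 1) followed each member most closely were ranked by Pearson's r among 12026 genes. These values describe libraries that share tables, media and composition. For Fkbp5 the closest were Mrpl20, Epop and Mlf2 (r = 0.88 each), and for Zbtb16 they were Wars and Fkbp5 itself (0.89 each). Zbtb16 was itself under the abundance minimum set for the compared genes, and apart from the DCI library it was above 0.5 TPM in the 4 tips only. Its values without the DCI library, 0.84 and 0.88, therefore rest on the difference between tips and organoids. For Tsc22d3 they were Prrg3 (0.77) and the glucocorticoid-induced factor Klf15 (0.74). The value for Klf15 was 0.58 without the DCI library, so that library carried part of it. For Nr4a1 they were Atf3 (0.80) and Ppp1r15a (0.75), both stress-induced genes, with 0.81 and 0.74 without the DCI library.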

How the data were processed

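RNA of 40 mouse libraries was given in 5 tables of TPM, which the authors made with RSEM and Bowtie2 against mm10, per the submitters' processing notes; versions, strand setting and filters are not given in the sources used here. One table held 1 column that matched no sample, which was not used. TPM keeps no read depth, so no counting interval could be had. Between 13036 and 14418 genes per library were at 1 TPM or more, and mitochondrial genes took 6.54% to 15.2% of TPM.

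Each table was analysed by itself. Values were tested as log2(TPM + 1) with limma 3.58.1 (R 4.3.3, variance trend) over genes of at least 1 TPM in at least 2 libraries. P-values were two-sided and adjusted by Benjamini-Hochberg over all genes of a table, and a gene was called at an adjusted p under 0.05. In a table the groups shared 1 fit. Pieces were fitted with terms for piece size and position. Organoids and tips were compared as 2 groups, and slopes came from a fit with culture day and stage as terms. Where groups had 1 library, a gene was called at a difference of at least 1 with at least 5 TPM in the higher library. The procedure was checked on simulated data with 200 changed genes. Differences on the log2(TPM + 1) scale understate the change of low genes.

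The 10 genes and all lists were chosen with earlier results of these data known, so list counts are descriptions. One gene was taken out of the lists and is not reported here, so list counts are over the other genes. All 10 were described in each comparison. From each other list, up to 4 called genes with the largest difference were named. Genes of like pattern were ranked among genes of at least 5 TPM in at least 5 libraries. Promoter sequences and their coordinates are from RefSeq (GRCm38.p6). Gene coordinates are from GENCODE M21. Alternatives were another pseudocount (0.1), other filters, other scalings, other fits and each library left out.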

Additional observations from a re-analysis of the deposited data

Results flagged for a closer look

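Zbtb16 had 2.07 TPM in the E13.5 tip, far from the other 3 tips at 5.44, 5.19 and 5.56 TPM. Its gap to the nearest tip was 0.924 of the range of the 4 tips in log2(TPM + 1). It was the 1 flag among 38 sets of library values examined in this way, and chance flags about 5% of such sets.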

How the results depend on the processing

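All values here count how many of the 10 genes were called, unless a gene is named. Of the 1-library comparisons, LO_day18 against LO_day8 called 2 genes after median-ratio or quantile rescaling (1 as reported). For 2C+MTG against 2C the count was 0 after either rescaling, without mitochondrial genes or at a difference of 1.5, and for 2C+VC against 2C it was 0 in the last 2 settings (1 as reported in both). In the limma fits, ALL-FGF10 against ALL called 0 genes with only those groups in the fit, pieces against the intact organoid called 1 without the filter on TPM, and the slope on culture day called 0 after either rescaling or with culture day alone in organoids. The cause of these changes was not tested. With 1 library left out, the counts ran from 0 to 1 for ALL-FGF10 against ALL, from 0 to 2 for ALL-VC against ALL, from 0 to 3 for ALL-FGF10 against ALL-MTG and from 0 to 2 for the culture day slope. A group left with 1 library was assumed to vary like the others. In the same runs the Per1 difference between ALL-FGF10 and ALL-MTG ran from -2.27 to 0.22, and the Zbtb16 slope over the tips from -1.52 to 0.04. The remaining 212 recomputed counts stayed within 1.5 times the reported ones. With a replicate block for the r1 and r2 numbers, the count was 1 in ALL-FGF10 against ALL and in ALL-FGF10 against ALL-MTG and 0 in the other 4 contrasts, as without it. Deviations of same-numbered libraries correlated between -0.07 and 0.114 over all genes. With 2 libraries per group, this cannot settle whether same-numbered libraries share an origin, which the labels do not state. Over all genes, limma called 143 genes with the block and 271 without it in ALL-FGF10 against ALL. It called 48 with the block in ALL-MTG against ALL, 68 in ALL-VC against ALL and 45 in ALL-MTG against ALL-VC, beside 76, 119 and 81 without it. With 1 library left out, calls over all genes ran from 63 to 1121 for ALL-FGF10 against ALL, from 1 to 188 for ALL-MTG against ALL, from 0 to 1274 for ALL-VC against ALL, from 64 to 797 for ALL-FGF10 against ALL-MTG, from 62 to 939 for ALL-FGF10 against ALL-VC, from 1 to 198 for ALL-MTG against ALL-VC, from 430 to 1816 for the culture day slope and from 18 to 171 for the slope over the tips, and the background percentages of these contrasts rest on the full set. Other settings also moved counts over all genes by more than 1.5 times. ALL-MTG against ALL ran from 7 (no filter on TPM) to 99 (quantile rescaling), ALL-VC against ALL from 27 (no filter) to 188 (median-ratio rescaling), ALL-MTG against ALL-VC from 18 (only the groups compared) to 101 (median-ratio), and ALL-FGF10 against ALL-VC reached 2158 with only the groups compared, beside 76, 119, 81 and 565 as reported. The slope over the tips ran from 25 (pseudocount 0.1) to 335 (no filter) beside 123, and that over start stage from 3 to 10 beside 9. For the 1-library comparisons, the counts at a difference of 1.5 and at 1 TPM in the higher library were 1546 and 4163 for LO_day11_DCI, 1175 and 3629 for LO_day18, 354 and 1480 for 2C+F10, 473 and 1714 for 2C+MTG, and 685 and 2426 for the unnumbered ALL, beside 2748, 2292, 643, 812 and 1346. For 2C+VC the count was 2030 at 1 TPM in the higher library, beside 1062, and it was also lower by over 1.5 times at a difference of 1.5.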
